A study of Mus musculus with 14 samples.

Results

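The promoters described here were CpG-rich promoters of protein-coding genes at which no site of histone H3 lysine 27 acetylation (H3K27ac) was listed nearby. A promoter was taken as the sequence around the annotated 5′ end of a gene on chromosomes 1 to 19 (GRCm38, mm10). It was chosen by 3 values. The GC content in 500 bp on either side was at least 55%, the ratio of observed to expected CpG dinucleotides in the same window was at least 0.6, and no site of the joined H3K27ac list lay within 5 kb of the 5′ end. Of 20807 autosomal coding genes, 8233 had a CpG-rich promoter, and 1197 of these were without a site. The share of CpG-rich promoters called site-free was thus 14.5% (95% Wilson interval 13.8 to 15.3%), which is the background for every count below. Among CpG-poor coding promoters, 7418 of 12574 (59.0%) were without a site.

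The sites were measured by chromatin immunoprecipitation and sequencing in immortalised mouse embryo fibroblasts (iMEF) of the single clone NG3. All cells, controls included, had exon 4 of both floxed Ash2l alleles deleted by a Cre-ER recombinase that 4-hydroxytamoxifen activates, and lived on a lentiviral human ASH2L fused to FKBP12F36V and HA2. ASH2L is a core subunit of the COMPASS complexes that methylate lysine 4 of histone H3, and the compound dTAG-13 directs the tagged protein to degradation. Of 14 libraries, 12 were H3K27ac libraries, with 2 for control cells and 2 for each duration of dTAG (30 min or 2, 4, 8 or 16 h). The remaining 2 were inputs, 1 from controls and 1 from the 16 h group. The 122228 sites were a single list over all H3K27ac samples, without a value for any sample or time point. Read depth, replicate error and changes over time could therefore not be given for any promoter, and a promoter without a site is one that the joined list leaves out, not one shown to lack the mark.

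H3K27ac is laid down by the acetyltransferases p300 and CBP at active promoters and enhancers. Most CpG-rich promoters belong to genes that all cells use, and there they are unmethylated and open. Another class serves genes of development, of neurons and of other specialised cells, and such promoters are often held by Polycomb complexes in cells that do not use them.

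The cell type was checked against marker genes. All 16 fibroblast markers, among them Col1a1, Fn1, Thy1 and Pdgfra, had a site within 1 kb of a coding 5′ end. Of the markers of other cells, 0 of 4 pluripotency genes and 0 of 3 muscle genes had one, and 1 of 7 neural genes (Tubb3), 1 of 4 endoderm genes (Foxa1), 1 of 4 blood genes (Runx1) and 1 of 4 epithelial genes (Krt8). These markers included 8 promoters of the site-free class, namely Sox2, Neurog1, Neurog2, Olig2, Sox1, Cdx2, Tal1 and Cdh1. Only markers with a CpG-rich promoter could be members. Such promoters belonged to 4 of 16 fibroblast markers (0 members), 5 of 7 neural markers (4 members) and 0 of 3 muscle markers. The pluripotency, endoderm, blood and epithelial markers had 1 of 4 each, and each of these was a member.

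The sequences of the 5 members with the highest CpG ratio, followed by that of the ribosomal protein gene Rpl3, are shown to give an idea of what these promoters look like. Each is the 200 bases upstream of the 5′ end, written 5′ to 3′ on the strand of the gene, with every CpG in capitals, and none of them overlapped an annotated exon. They were read from GRCm38.p6, at chr6:30959079-30959278, minus strand (Klf14), chr10:45486396-45486595, minus strand (Lin28b), chr10:45335572-45335771, plus strand (Bves), chr2:133551959-133552158, plus strand (Bmp2), chr5:106458167-106458366, minus strand (Barhl2) and chr15:80091869-80092068, minus strand (Rpl3).
Klf14: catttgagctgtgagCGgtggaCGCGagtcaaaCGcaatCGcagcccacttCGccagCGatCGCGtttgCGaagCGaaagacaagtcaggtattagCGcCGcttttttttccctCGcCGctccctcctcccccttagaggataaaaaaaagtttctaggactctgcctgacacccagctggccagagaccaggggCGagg
Lin28b: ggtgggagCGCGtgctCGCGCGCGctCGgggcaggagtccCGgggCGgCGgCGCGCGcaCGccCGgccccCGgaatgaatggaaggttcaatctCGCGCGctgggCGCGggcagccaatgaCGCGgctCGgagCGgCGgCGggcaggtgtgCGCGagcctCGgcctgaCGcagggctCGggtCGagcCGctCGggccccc
Bves: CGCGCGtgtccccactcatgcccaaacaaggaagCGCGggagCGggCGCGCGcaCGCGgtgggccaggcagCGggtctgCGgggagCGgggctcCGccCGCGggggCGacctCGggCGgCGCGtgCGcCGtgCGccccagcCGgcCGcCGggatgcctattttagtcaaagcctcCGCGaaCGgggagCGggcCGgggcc
Bmp2: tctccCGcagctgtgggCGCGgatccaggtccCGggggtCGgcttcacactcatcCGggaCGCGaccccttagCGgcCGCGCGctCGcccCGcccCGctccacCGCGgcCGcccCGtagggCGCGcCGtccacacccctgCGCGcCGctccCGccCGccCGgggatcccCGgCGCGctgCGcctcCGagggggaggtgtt
Barhl2: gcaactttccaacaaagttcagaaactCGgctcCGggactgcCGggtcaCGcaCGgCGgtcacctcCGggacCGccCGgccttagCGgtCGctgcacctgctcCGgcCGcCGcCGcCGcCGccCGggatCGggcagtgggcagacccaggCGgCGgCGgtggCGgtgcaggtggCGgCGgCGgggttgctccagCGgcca
Rpl3: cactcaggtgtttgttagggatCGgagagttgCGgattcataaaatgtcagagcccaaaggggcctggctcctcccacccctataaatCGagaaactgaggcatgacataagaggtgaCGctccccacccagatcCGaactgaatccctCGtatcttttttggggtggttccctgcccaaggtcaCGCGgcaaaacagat

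The number of CpGs in these 200 bases was 35 at Lin28b, 33 at both Bves and Bmp2, 27 at Barhl2, 16 at Klf14 and 8 at Rpl3. The CpG ratio of the full window was 1.11 at Klf14, which encodes a zinc finger factor, 1.08 at Lin28b, an RNA-binding protein of early development, 1.08 at Bves, a membrane protein of heart and skeletal muscle, 1.08 at the growth factor Bmp2 and 1.07 at the homeobox gene Barhl2. Their nearest sites were between 18.9 kb (Klf14) and 115.9 kb (Barhl2) away. The ribosomal gene had a ratio of 0.651 and the nearest site at 6.72 kb. These values and the sequence belong to its outermost 5′ end, and 2 of its 3 coding 5′ ends had a site within 1 kb. The sequence of Rpl3 was outside the rule for naming and was added after its values were seen.

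The gene lists used from here on were written with earlier results of these data known, so their shares were described without a test. Transcription factors of development were the first group of members. Of 197 CpG-rich promoters in 8 lists of such factors, 120 were without a site (60.9%, compared to the background of 14.5%). Each promoter was counted under 1 list here, with Twist1 and Twist2, which had a site, under the fibroblast markers. Their nearest site was at a median of 59.0 kb (quartiles 30.5 and 112.7 kb), and 6 of the 120 genes contained a site anywhere between their ends. The genes were short, with a median length of 5.56 kb. Under the rule a gene of up to 5 kb cannot contain a site, so this count follows in part from gene length. Only 1 of the 120 genes (0.833%) had a head-to-head coding neighbour.

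Homeobox genes outside the Hox clusters made up the largest of these lists. Here 67 of 95 CpG-rich promoters (70.5%, interval 60.7 to 78.8%), on 17 chromosomes, were without a site. Irx2, a patterning factor, was 699 kb from the nearest site, and its neighbour Irx1 was 293 kb from one. The 5′ end of Irx2 is at position 72628820 of chromosome 13 and that of Irx1 at 71963723, within a site-free stretch of 1657 kb that also contained Irx4. Lmx1a, a factor of dopamine neurons, followed with 262 kb and Prox1, a factor of lymphatic vessels, with 248 kb. The smallest distance in the list was 6.60 kb.

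The Hox genes were divided. The site-free promoters were 8 of 20 (40%, interval 21.9 to 61.3%), and they belonged to 3 of the clusters. Hoxc13, Hoxc12, Hoxc11, Hoxc9 and Hoxc8 shared a stretch of 287 kb on chromosome 15, Hoxb9 and Hoxb7 were on chromosome 11, and Hoxd1 on chromosome 2. Hoxc8 was 137.3 kb, Hoxc9 135.6 kb, Hoxb9 129.9 kb and Hoxb7 121.3 kb from a site. The other 12 CpG-rich Hox promoters had a site within 5 kb. Promoters of one cluster lie close together and are not independent observations.

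Pax, Sox, T-box, Gata and Zic genes, many of which encode factors that fix cell identity in the embryo, had shares above the background as well. The site-free Pax genes were 3 of 4, with Pax2 (kidney and ear) at 144 kb, Pax7 (muscle stem cells) at 115.8 kb and Pax3 (muscle and neural crest) at 65.6 kb from a site. Of Sox genes, 9 of 14 were without a site. Sox17, a factor of endoderm, was 248 kb, Sox1 and Sox14, of neural cells, were 240 kb and 154 kb, and Sox2, of pluripotent and neural cells, was 92.1 kb away. T-box genes accounted for 5 of 8, namely Tbx20 at 59.9 kb, T at 44.4 kb, Tbx1 at 34.8 kb, Tbx21 at 31.1 kb and Eomes at 27.7 kb. Zic1 had the nearest site at 863 kb, the largest distance among all 8 lists, compared to 61.2 kb at Gata5 and 58.4 kb at Zic2, so that 3 of 4 promoters of this list were site-free. With lists of 4 promoters the intervals were wide (30.1 to 95.4% for both Pax and Gata and Zic).

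Forkhead and basic helix-loop-helix genes were also above the background. Of 28 forkhead promoters 11 were without a site (39.3%, interval 23.6 to 57.6%), among them Foxd3, a factor of the neural crest, at 164 kb and Foxb1, Foxi3 and Foxn4 at 129.4 kb, 86.2 kb and 82.9 kb. The helix-loop-helix list gave 14 of 26 (53.8%, interval 35.5 to 71.2%). The neuronal factors Atoh1, Sim1 and Neurog1 were 224 kb, 168 kb and 98.5 kb from a site, and Olig2, a factor of oligodendrocytes and motor neurons, 126.9 kb. In contrast, Twist1 and Twist2 of the same list, which mark mesenchymal cells, had their 5′ end inside a site.

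Genes of excitable cells were the second group. In 6 lists of ion channels, transmitter receptors, peptide receptors and synapse proteins, 104 of 147 CpG-rich promoters were without a site (70.7%). The median distance was 44.1 kb (quartiles 24.7 and 106 kb). These genes were long, with a median of 53.4 kb, and 30 of the 104 contained a site somewhere within the gene. Because of the difference in gene length, this count is not comparable with that of the transcription factors.

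Potassium channels had the highest share of all 28 lists, with 31 of 39 (79.5%, interval 64.5 to 89.2%). Kcnb2 was 362 kb, Kcnd3 234 kb, Kcnc1 191 kb and Kcnq3 136.5 kb from the nearest site; Kcnb2 and Kcnq3 had 2 and 3 sites within the gene. Sodium and calcium channel genes gave 9 of 13 (69.2%), with the calcium channel subunit Cacng7 at 165 kb, Cacng4 at 118.6 kb and the sodium channel subunit Scn4b at 82.6 kb.

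Receptors for glutamate, GABA and glycine had the largest median distance of the 28 lists, 170 kb, and 15 of 19 promoters (78.9%, interval 56.7 to 91.5%) were without a site. The GABA receptor subunits Gabra2, Gabrb1 and Gabra4 on chromosome 5 lay in a single stretch of 2530 kb. Gabra2 was 1.03 Mb from the nearest site. Gabrb1 and Gabra4 are transcribed head to head, with 5′ ends at 71658113 and 71658308, and were 464 kb from that site. Grik2, a kainate receptor subunit, was 372 kb away and had 3 sites within the gene.

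Amine and acetylcholine receptors gave 10 of 15 (66.7%), with the acetylcholine receptors Chrna7 at 541 kb and Chrm3 at 292 kb and the dopamine receptors Drd2 and Drd5 at 87.0 kb and 55.95 kb. Peptide and lipid receptors gave 16 of 31 (51.6%), with the corticotropin-releasing hormone receptor Crhr1 at 142 kb, the oxytocin receptor Oxtr at 132.5 kb, Gpr12 at 90.4 kb and the galanin receptor Galr1 at 72.4 kb. Synapse and neurosecretion genes gave 23 of 30 (76.7%, interval 59.1 to 88.2%). Syt9, a calcium sensor of vesicles, was 1.12 Mb from a site, followed by Rims1 at 311 kb, Nrxn2 at 277 kb and the GABA transporter Slc6a11 at 272 kb.

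Genes of cell adhesion and signalling also exceeded the background. In 4 lists, 37 of 86 promoters were without a site (43.0%), at a median of 30.2 kb. Cadherins and protocadherins outside the clusters gave 11 of 16 (68.8%). Cdh8, a cadherin of the nervous system, was 2.35 Mb from the nearest site, and Cdh4 was 513 kb, Pcdh8 183 kb and Pcdh15 109.8 kb away. Of the clustered protocadherin genes, 2 had a CpG-rich promoter by these limits and both had a site. Ligands of the Wnt, Fgf, Bmp and hedgehog families gave 16 of 33 (48.5%), with Ihh at 134 kb, Bmp2 at 114.2 kb, Gdf10 at 77.6 kb and Bmp7 at 59.8 kb. Ephrins, semaphorins and other guidance molecules gave 10 of 35 (28.6%, interval 16.3 to 45.1%), the share nearest to the background among the 18 lists above it. They were led by the netrin receptor Unc5d at 907 kb, Ephb1 at 223 kb, Unc5a at 126.2 kb and Epha8 at 66.3 kb.

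Germ cell and meiosis genes were the third group, with 18 of 25 promoters without a site (72%, interval 52.4 to 85.7%) and a shorter median distance of 25.8 kb. Slc25a31, the ADP/ATP carrier of the testis, was 204 kb, the piRNA pathway gene Mael 110.2 kb, the meiotic cohesin gene Smc1b 71.2 kb and the Tudor domain gene Tdrd5 54.5 kb from a site.

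**Figure D1:**
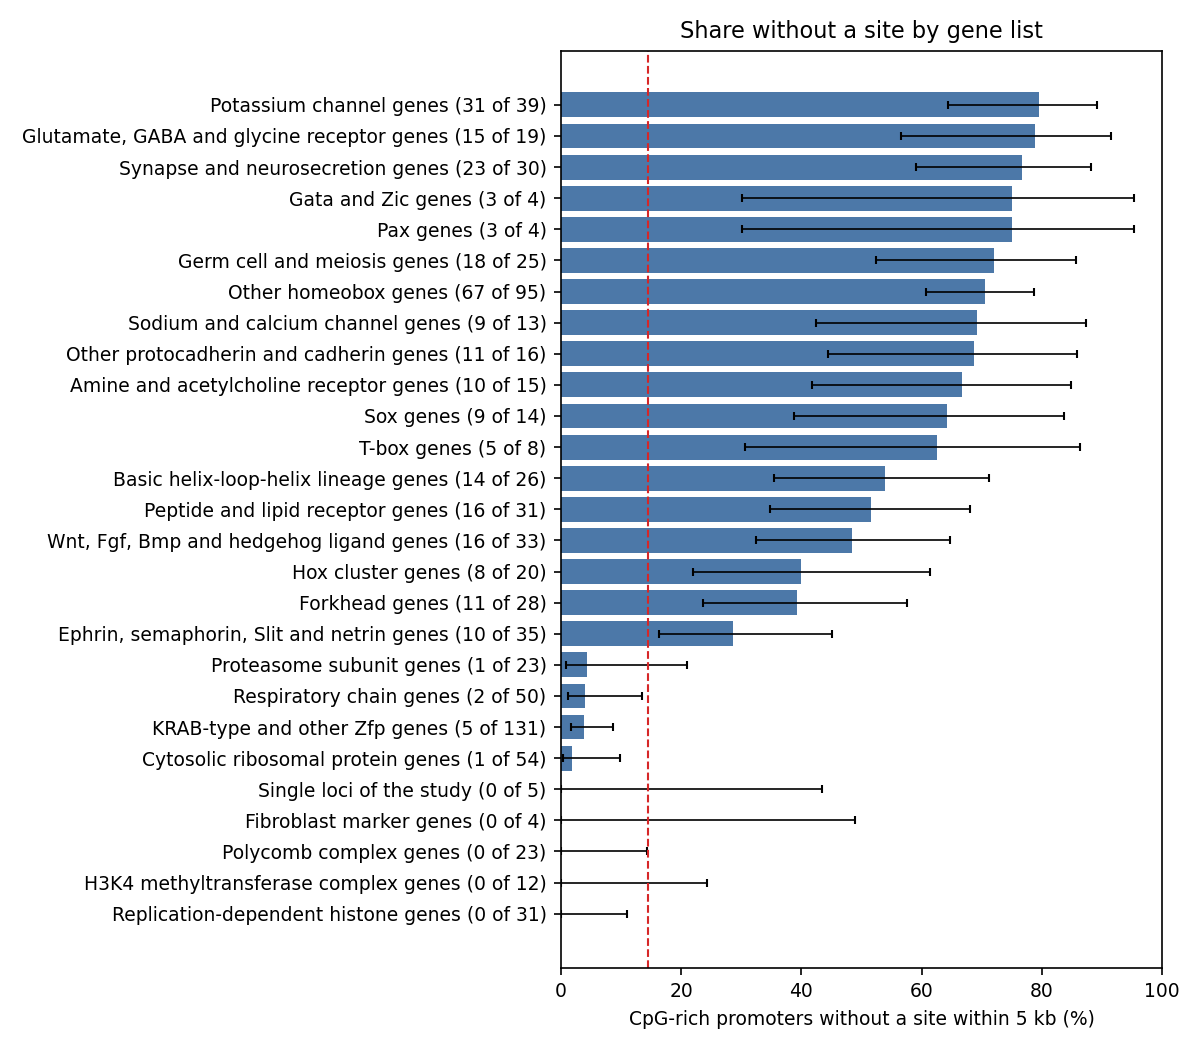
Percent of CpG-rich promoters without a site within 5 kb in each gene list (bars, with the number of members and of CpG-rich promoters in parentheses) and its 95% Wilson interval (black lines, counting error only). The dashed line is the background of 14.5%. The 18 lists of development, excitable cells, adhesion, signalling and germ cells lie above it, from 28.6 to 79.5%, and the remaining lists below it. The lists were written with earlier results of these data known, so this split is a description and not a test. A list with 2 promoters is left out.

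Genes of general cell function were rarely without a site. In 6 lists this was true of 4 promoters (2.08%, with Wdr5, which had a site, counted under the single loci of the study). They were Rpl3 of the ribosome (1 of 54), Psmb9 of the immunoproteasome (1 of 23), and Ndufs3 and Uqcrc1 of respiratory complexes I and III (2 of 50). Psmb9 was 62.9 kb, Ndufs3 57.0 kb, Uqcrc1 16.6 kb and Rpl3 6.72 kb from the nearest site. Rpl3 was a member by its outermost 5′ end only, since 2 of its 3 coding 5′ ends had a site within 1 kb. The ribosomal list had 0 of 54 with a distance of 10 kb and 0 of 56 with the principal transcript. Replication-dependent histone genes had 0 of 31, which allows a share of up to 9.68%, Polycomb genes 0 of 23 (up to 13.0%), and H3K4 methyltransferase complex genes 0 of 12 (up to 25%). Fibroblast markers had 0 of 4 and the single loci examined by the study 0 of 5, which allow up to 75% and 60%, well above the background. Zinc finger genes with a Zfp symbol were rarely members as well, with 5 of 131 (3.82%, interval 1.64 to 8.62%). These were Zfp641 at 114.7 kb, Zfp423 at 95.4 kb, Zfp804a at 57.5 kb, Zfp872 at 22.9 kb and Zfp541 at 8.97 kb from a site.

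The lists covered 288 of the 1197 members, and the other 909 belonged to none. Among the 7447 CpG-rich promoters outside the lists, 12.2% were without a site. The background includes the lists (288 of 786), so a share below it outside them follows from the higher share within them. Families were then read from gene symbols, as the letters before the first digit, for the 87 such stems with at least 10 CpG-rich promoters. The families named here were chosen after their values were seen. Secreted Adamts proteases gave 6 of 11, tetraspanins (Tspan) 5 of 10 and collagens (Col) outside the lists 5 of 11, namely Col2a1, Col13a1, Col15a1, Col23a1 and Col26a1. The CpG-rich Col5a1, counted under the fibroblast markers, had its 5′ end inside a site. Solute carriers (Slc) outside the lists gave 28 of 133 (21.1%) and Tmem genes 20 of 106 (18.9%). In 20 stems there was no member, among them translation initiation factors (Eif, 0 of 37, which allows up to 8.11%). Others were vesicle sorting genes (Vps, 0 of 24, up to 12.5%), sorting nexins (Snx, 0 of 22, up to 13.6%) and large-subunit mitochondrial ribosomal proteins (Mrpl, 0 of 22, up to 13.6%). Mitochondrial ribosomal proteins of the small subunit (Mrps) gave 1 of 17, namely Mrps23. RNA polymerase subunits (Polr) had 0 of 18, which allows up to 16.7%, above the background.

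The distance to the nearest site had a minimum of 5 kb by the rule and is described without a test. It was 43.3 kb at the median of all members, with quartiles of 18.8 and 90.9 kb. Within 10 kb of a site were 130 members (10.9%), whereas 35 (2.92%) were more than 500 kb away. The CpG-poor promoters without a site had a similar median of 46.8 kb but a larger upper quartile of 154 kb. The nearest site was upstream of 661 members (55.2%) and downstream of 536. It was located in the gene itself for 188 members, and 315 genes (26.3%) contained a site at all, nearly all of them (312) among the 904 genes longer than 10 kb. The nearest sites were not unusually narrow, with a median width of 453 bp compared to 402 bp over all autosomal sites.

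**Figure D2:**
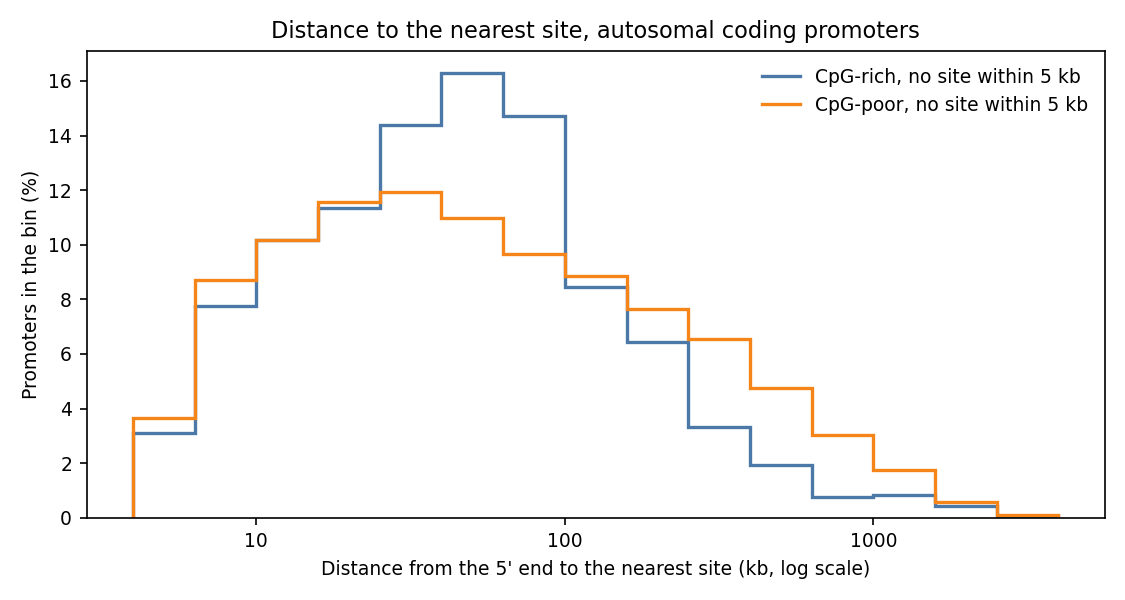
Distance from the 5′ end to the nearest site (x axis, log scale) and percent of promoters in each bin of 0.2 log10 units (y axis), for 1197 CpG-rich (blue) and 7418 CpG-poor (orange) promoters without a site within 5 kb. The 2 medians are close, at 43.3 and 46.8 kb, and the CpG-poor promoters reach farther, with upper quartiles of 154 and 90.9 kb.

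The members farthest from a site were predicted genes of chromosome 14, Gm10409 at 2.70 Mb, Gm3020 at 2.46 Mb, Gm2974 at 1.93 Mb and 2610042L04Rik at 1.77 Mb, together with Cdh8 at 2.35 Mb. In these predicted genes only 6.80%, 6.69%, 85.2% and 81.4% of the 75-bp stretches of the window occurred once in the genome, compared to 100% at Cdh8. The members nearest to a site were Ikzf3 at 5047 bp, Ptch1 at 5068 bp, Celf5 at 5143 bp, Asic1 at 5189 bp and Ptpru at 5190 bp. Just inside the limit, and so no members, were Atp1b2 at 4978 bp, AW011738 at 4972 bp and Afap1l2 at 4900 bp. At the limit of GC content, Desi2 and Tmod1 (both 55.05%) and Psd4 (55.14%) were just above it, and Slc16a14, Brinp2 and Ppp1r36 (54.95% each) were site-free but just below. At the limit of the CpG ratio, Erbb3, Ly6g6c and Col26a1 were just above it (0.6002 each), and Etnk2 (0.5999) and Chst9 (0.5991) just below.

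A 5′ end is only 1 of the starts that a gene may have. Of the members, 727 had more than 1 annotated coding 5′ end, and 59 (4.93%) had a site within 1 kb of another of these ends. By the number of sites at such ends, the septin gene Sept9 and Tns1, encoding tensin of focal adhesions, came first with 5 each, followed by the nucleotidase gene Nt5c2 and the adenylate cyclase gene Adcy7 with 3 each. Ank3, encoding a spectrin-binding protein, was 1 of 5 genes with 2 and had the most ends among them, 13 of 24 with a site within 1 kb, and 54 sites within the gene. Rpl3 had 2 such ends and 5 sites within the gene. With all coding 5′ ends considered, 1120 members had no site within 5 kb of any of them. A RefSeq 5′ end lay within 500 bp of the 5′ end for 822 members (68.7%), compared to 76.9% of the CpG-rich promoters with a site. Genes known only by a Gm number or a Rik name made up 5.51% of members and 3.25% of the others.

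The members were compared with the 7036 CpG-rich promoters that had a site, by further measures. Those that rest fully on the rule are given without a test, and partial links to the rule are stated. Chromosomes were the units, since neighbouring promoters are not independent, and the differences over the 19 autosomes were tested with an exact two-sided sign-flip permutation test. Its smallest possible p is 3.81e-06, and p-values were adjusted over 6 measures. Members lay in regions with fewer sites. In the interval from 50 to 500 kb away, on either side, there were 62.4 sites per Mb compared to 76.6, a difference of -14.2 ± 8.82 (mean ± SD, n = 19), and it was lower on 19 of 19 chromosomes (exact permutation, adjusted p = 2.29e-05). From 20 to 100 kb away the difference was -45.7 sites per Mb. The count comes from the same list of sites as the rule, at other positions. It is not independent of the rule, and the p-value is no separate support. The largest difference, -41.9, was on chromosome 14, which also held the longest run of members, in windows of low uniqueness. Among the named genes the density ranged from 0, as at Irx2, Zic1, Cdh8 and Syt9, to 213 sites per Mb at Ptch1.

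Head-to-head arrangement, in which a coding gene on the opposite strand starts within 1 kb, was rare. It was found at 6.06% of members and 21.9% of the others as means over chromosomes, with a difference of -15.8 ± 8.09 percentage points (n = 19), lower on 18 of 19 chromosomes (exact permutation, adjusted p = 3.43e-05). With 1 promoter per locus, which joins such partners, the difference was -9.54 points (exact permutation, adjusted p = 4.58e-05). The 5′ end of such a neighbour lies inside the 5 kb that the rule searched, so this measure is not fully separate from the rule. A site at either start keeps both promoters out of the class, so a lower share is partly built in. The p-values cannot separate the arrangement from the rule. Counted over all promoters, 64 members had such a neighbour, compared to 1564 of the others. In 24 pairs both genes were members. Among these were the GABA receptor pair Gabra4 and Gabrb1, the imprinted pair Peg3 and Usp29 at 331 kb, Nfya and Oard1 at 495 kb, Ranbp1 and Trmt2a at 249 kb, Psmb9 and the peptide transporter gene Tap1 at 62.7 kb and Rpl3 and Syngr1. Rpl3 and Syngr1 each had a site within 1 kb of another coding 5′ end. Pairs outside the rule for naming were picked after their values were seen.

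Member genes were longer, with a difference of 0.25 ± 0.32 in log2 length, positive on 15 of 19 chromosomes (exact permutation, adjusted p = 0.00470), and medians of 33.2 and 27.4 kb. This call was lost with all coding 5′ ends considered (0.0916, adjusted p = 0.232), with 1 promoter per locus (0.145, adjusted p = 0.103) and under stricter limits of GC and CpG (0.131, adjusted p = 0.341), in the same exact permutation test. The repeat share of the window differed by 0.397 ± 1.35 percentage points, which was not significant (exact permutation, adjusted p = 0.219). The remaining measures used the values of the rule and are described without a test. Of the nearest CpG-rich promoters more than 10 kb away on either side, 23.9% were without a site for members and 14.8% for the others, as means over chromosomes. The stretch of CpG-rich sequence around the 5′ end was 924 bp long in members and 957 bp in the others, and the sign of this difference turned under stricter limits of GC and CpG (27.5 bp).

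**Figure D3:**
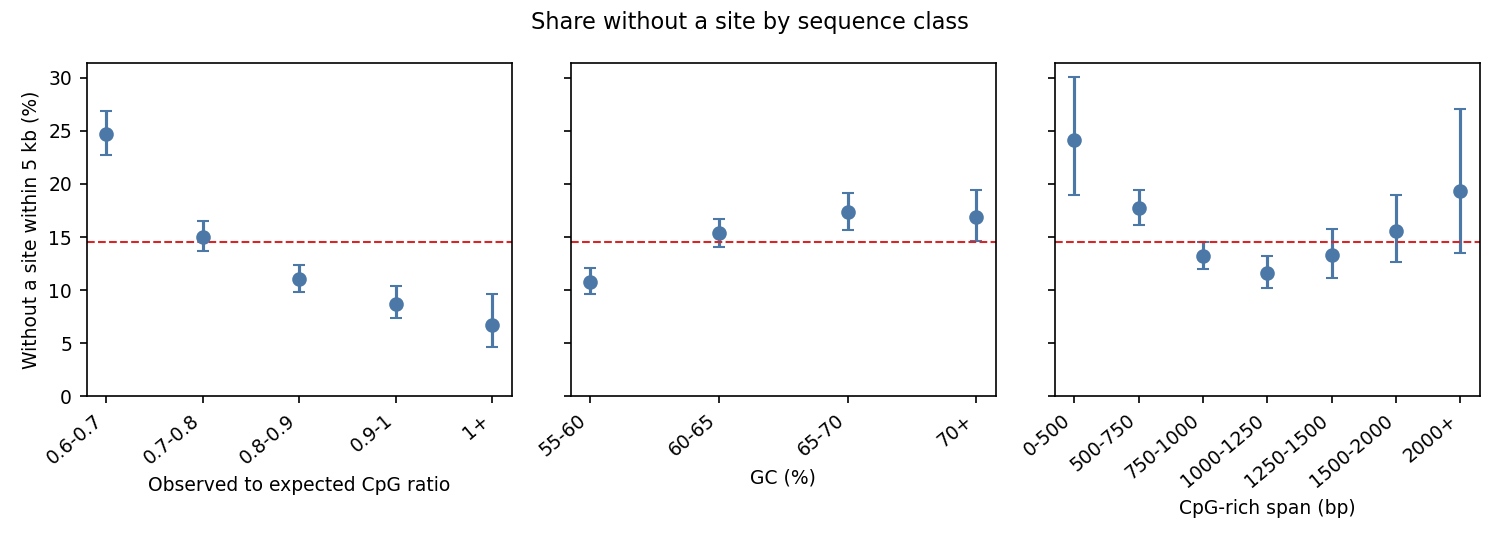
Percent of CpG-rich promoters without a site within 5 kb by CpG ratio, GC content and length of the CpG-rich sequence, with 95% Wilson intervals (counting error only). The dashed line is the background of 14.5%. The share falls from 24.7% at the lowest CpG ratios to 6.72% at the highest.

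The GC content and CpG ratio were limits of the rule and are given without a test. Median GC was 63.6% for members and 62.3% for the others, and the median CpG ratio was 0.745 and 0.806. The site-free share was 24.7% (430 of 1738) at CpG ratios from 0.6 to 0.7 and fell with every step, to 6.72% (26 of 387) at ratios of 1 and more. By GC it was lowest, 10.8%, between 55 and 60%. With the length of the CpG-rich sequence it was 24.1% under 500 bp, 11.6% in the bin that starts at 1000 bp and 19.4% from 2000 bp on, so that it was lowest in the middle.

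Short sequence motifs were searched from 250 bp upstream to 50 bp downstream of the 5′ end, on both strands, and p-values were adjusted over 9 motifs. Members and the others were not matched for CpG ratio (medians of 0.745 and 0.806). Nor were they matched for a RefSeq 5′ end within 500 bp (68.7 and 76.9%) or a head-to-head neighbour (5.35 and 22.2% over all promoters). A CpG is part of the ETS, NRF1, cyclic AMP, GC box, E-box and E2F motifs below, but not of the YY1, CCAAT and TATA motifs. The motif CCGGAAG, which ETS factors bind, was held by 5.93% of members and 20.2% of the others (means over chromosomes). The difference was -14.2 ± 4.09 percentage points (n = 19) and negative on 19 of 19 chromosomes (exact permutation, adjusted p = 1.72e-05). Over all autosomal coding promoters the share was 11.0%. The motif was present in 70 members. These were 4 of the 120 in the lists of developmental transcription factors (3.33%), 3 of 104 in those of channels, receptors and synapse proteins (2.88%), 0 of 37 in those of ligands and adhesion, 3 of 18 germ cell genes (16.7%), 1 of 5 Zfp genes, 0 of 4 genes of general function and 59 of 909 in no list (6.49%).

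Motifs of YY1, NRF1 and CREB gave differences of the same sign. AAGATGG, read by YY1, was held by 2.72% of members and 7.40% of the others, a difference of -4.68 ± 2.38 percentage points on 19 of 19 chromosomes (exact permutation, adjusted p = 1.72e-05), and by 6.26% of all coding promoters. Over 500 bp either side the YY1 difference was -7.98 points. GCATGCGC, read by NRF1, was held by 2.43 and 6.63%, a difference of -4.20 ± 2.94 on 17 of 19 chromosomes (exact permutation, adjusted p = 5.72e-05), and by 3.46% of all. TGACGTCA, the cyclic AMP response element, was held by 2.10 and 4.01%, a difference of -1.91 ± 2.26 on 17 of 19 chromosomes (exact permutation, adjusted p = 0.00548), and by 2.43% of all. The CCAAT box differed by -4.89 ± 7.90 percentage points (32.6 and 37.5%, and 38.6% of all coding promoters; exact permutation, adjusted p = 0.0303), but this call was lost under stricter limits of GC and CpG (0.922), over 500 bp either side (-2.02) and without head-to-head promoters (-3.78).

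Other motifs did not pass the test. The GC box GGGCGG was held by 75.6% of members and 76.0% of the others, a difference of -0.47 ± 5.03 percentage points (exact permutation, adjusted p = 0.771), and by 43.8% of all coding promoters. The E-box CACGTG was held by 11.1 and 11.2% (adjusted p = 0.904, exact permutation) and by 7.83% of all, and the E2F motif GGCGGGAA by 5.70 and 5.35% (adjusted p = 0.771, exact permutation) and by 2.98% of all. The TATA box TATAAA was held by 6.39 and 4.70%, with a difference of 1.70 ± 4.56 (adjusted p = 0.184, exact permutation), and by 12.7% of all. The GC box and the E2F motif share the letters GGCGG and can overlap. A match is a run of letters and not a bound site, and the absence of a match says only that these letters are not in this window.

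**Figure D4:**
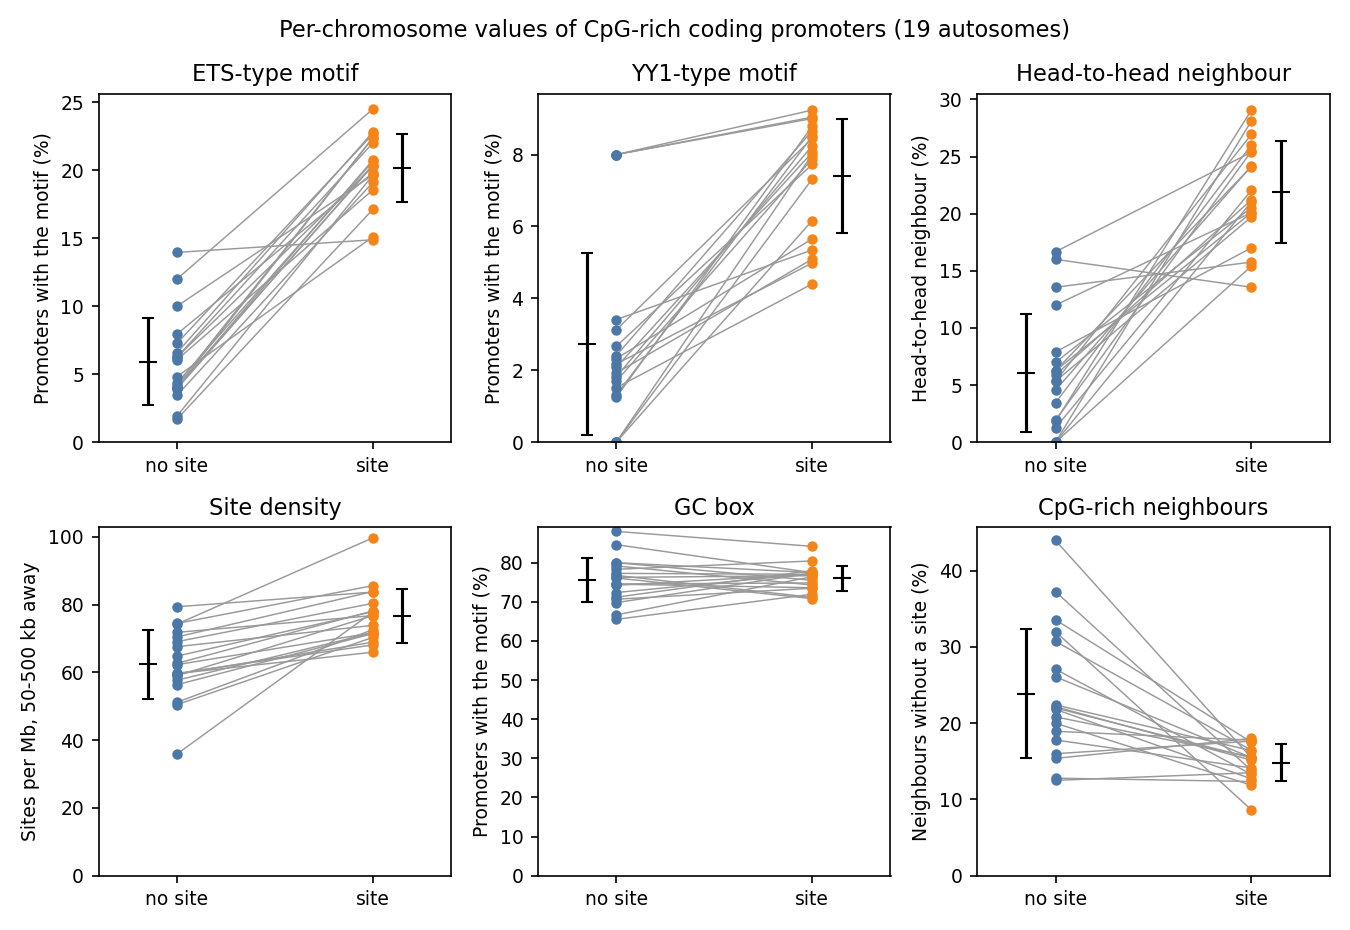
Values of CpG-rich coding promoters without a site (blue) and with one (orange) on each of 19 autosomes, joined by a line per chromosome, with mean and SD (black). The ETS-type motif, the YY1-type motif and the density of sites 50 to 500 kb away are lower in members on 19 of 19 chromosomes and the head-to-head arrangement on 18 of 19. The GC box is at 75.6 and 76.0%, and site-free neighbours are more frequent for members on 16 of 19. Site density, head-to-head arrangement and site-free neighbours are not independent of the rule.

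Finally, the position of members along the chromosomes was considered. The site-free share was 14.6 ± 2.90% (mean ± SD, n = 19 chromosomes) and ranged from 9.12% on chromosome 16 to 20.5% on chromosome 15. Members formed 897 runs in the order of CpG-rich promoters, of which 704 were single promoters, and 493 members (41.2%) were in runs of 2 or more. When 5′ ends less than 10 kb apart were joined, 1162 loci were left. In terms of stretches between neighbouring sites, 312 members (26.1%) shared a stretch with another member, and 37 stretches had 3 or more. Some members would lie next to another member even if members were placed at random. No share for random placement was calculated, so whether the 41.2% and 26.1% exceed it was not tested. The median length of a stretch with a member was 146 kb.

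The longest run had 14 members on chromosome 14, between 3412614 and 7027449. They were Gm10409, Gm3020, Gm2974, 2610042L04Rik, Gm3164, Gm3252, Gm3264, Gm8281, Gm3500, Gm3488, Gm3373, Gm3411, Gm3667 and Gm10406. In the median window of this run 51.3% of 75-bp stretches were unique, and 11 of the promoters lay before the first site of the chromosome. The second run had 8 members on the same chromosome, among them Nefl and Nefm of the neurofilaments, with 23 sites between the first and the last. Here the windows of Slc25a37, Entpd4, Gm16867, Entpd4b and Loxl2 had no unique 75-bp stretch. Among all members 53 windows (4.43%) were less than 90% unique and 20 had no unique stretch, compared to 129 (1.83%) and 9 among the others. Reads cannot be placed between identical copies, and the part of this in the missing sites was not tested. Without such windows the longest run had 7 members.

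The next 3 runs had unique sequence and no site between their first and last member. Whether the list is complete over these stretches was not tested. On chromosome 15, 9130401M01Rik, Gm29394, Zhx1, Atad2, Wdyhv1, Fbxo32 and Fam91a1 lay in a stretch of 561 kb. The members farthest inside were Fbxo32, a ubiquitin ligase of muscle atrophy, at 238 kb, Wdyhv1 at 164 kb and Atad2, a bromodomain protein, at 158 kb from a site. On chromosome 19, Atg2a of autophagy, Ehd1 of endosome recycling, Cdc42bpg, Map4k2, the splicing factor Sf1, Rasgrp2 and Nrxn2 lay in a stretch of 698 kb, with distances that ranged from 99.8 kb at Atg2a to 277 kb at Nrxn2. On chromosome 16, Rtn4r, Zdhhc8, Trmt2a, Ranbp1 of nuclear transport, Dgcr8 of microRNA processing and Arvcf lay in a stretch of 548 kb, with distances from 149.9 kb at Arvcf to 263 kb at Zdhhc8. Windows in these runs were 100% unique at the median, and 88.0% at Dgcr8.

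**Figure D5:**
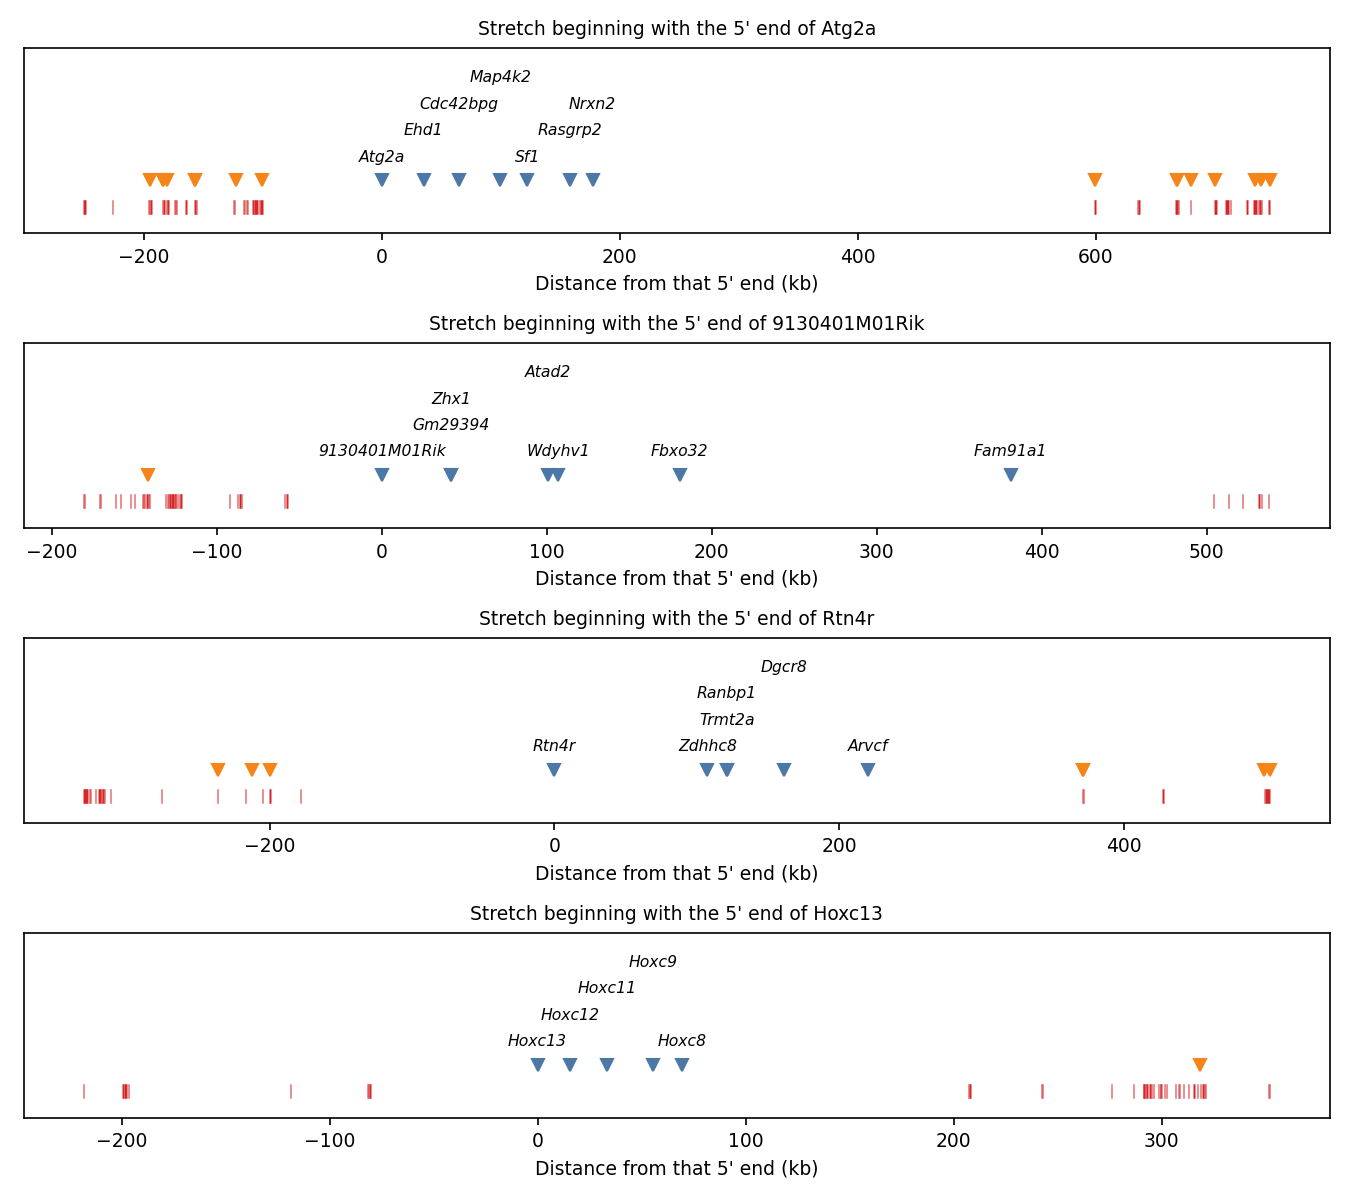
Maps of 4 stretches without a site that held 5 to 7 members each, on chromosomes 19, 15, 16 and 15 from top to bottom, with 150 kb on either side. The x axis is the distance in kb from the 5′ end of the leftmost member (Atg2a, 9130401M01Rik, Rtn4r and Hoxc13). Red marks are sites, blue triangles members and orange triangles CpG-rich promoters with a site. The stretches are bounded by sites on both sides, and the number of sites in the flanks differs between them.

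Further stretches whose windows were 100% unique at the median were picked after their values were seen. Jund, Rab3a, Mpv17l2, Pik3r2 and Arrdc2 shared 191 kb on chromosome 8. The splicing factor gene Srsf1 lay with Vezf1 and Mrps23 in 406 kb on chromosome 11, Hnrnpu with Desi2 and Cox20 in 385 kb on chromosome 1, and the kinesin gene Kif11 with March5 and the homeobox gene Hhex in 316 kb on chromosome 19. In contrast, other stretches held only genes of development, such as Irx1, Irx2 and Irx4 in 1657 kb and Dmrt1, Dmrt3 and Dmrt2 in 1142 kb on chromosome 19. The class I histocompatibility genes H2-Q2, H2-Q4, H2-Q6, H2-Q7 and H2-Q10 shared 249 kb on chromosome 17, where 97.6% of 75-bp stretches were unique at the median.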

How the data were processed

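H3K27ac was measured by ChIP-seq in 14 libraries (12 H3K27ac and 2 inputs). The authors used Trim Galore for trimming and BWA for alignment to mm10, filtered reads as ENCODE recommends, merged replicates with Picard, called narrow peaks with MACS and joined the peaks of all samples. Versions and thresholds are not given in the sources used here. The submitters' processing notes also name SAMtools, deepTools and DESeq2, and MACS2. The deposited list gives the chromosome, start and end of each site, as positions in base pairs with no value per sample. Both position columns belong to no single sample. The planned test of read counts between time points was therefore not run. Starts were read as counted from 0, and positions are printed from 1.

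Genes came from GENCODE M21, an earlier release than the authors' M25, with sequence from GRCm38.p6. The outermost 5′ end of each gene was used. The length of CpG-rich sequence was the run of 200-bp windows, in steps of 50 bp, with GC of at least 50% and a CpG ratio of at least 0.6. Lists were matched by gene symbol. Their members, and the class as a whole, were chosen with earlier results of these data known, and the homeobox pattern was corrected after its matches had been seen, since it had taken in genes such as Islr. The classes were compared with a sign-flip permutation test over all sign patterns of the 19 autosomes and Benjamini-Hochberg adjustment. The adjustment covered 6 measures, including the CpG-rich length and the site-free neighbours, whose tests are not reported since both rest on the rule. Wilson intervals and the limits for 0 counts (3 counts) cover counting error only. Uniqueness was the percent of 75-bp stretches of a window that occur once in chromosomes 1 to 19, X and Y.

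Named genes were, per list, up to 4 members farthest from a site, or all where there were 5 or fewer. They were also the extremes and threshold neighbours, the 5 longest runs, the 5 highest CpG ratios and up to 5 members by the number of sites within 1 kb of other coding 5′ ends, with ties broken by the number of such ends, a choice made after seeing the data. A few genes that this rule names are not reported here. The procedure was tested on simulated data. Alternatives were other limits of distance, GC and CpG, other windows and 5′ ends, fewer sites and 1 promoter per locus. Calculations used Python 3.11.15, numpy 2.4.6, pandas 2.3.3 and scipy 1.17.1, and plots matplotlib 3.10.9.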

Additional observations from a re-analysis of the deposited data

Results flagged for a closer look

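The X chromosome was not part of the class. It is given because its sites lay outside the data compared. Of 172 CpG-rich coding promoters on X, 135 had a site within 5 kb and 37 had none (21.5%, 95% Wilson interval 16.0 to 28.2%), compared to 14.6 ± 2.90% over the 19 autosomes (mean ± SD) and at most 20.5%, on chromosome 15. The difference was not tested.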

How the results depend on the processing

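The share of site-free promoters (14.5%) was 15.6% with a distance of 2 kb, 12.96% with 10 kb, 12.5% with GC of at least 60% and a CpG ratio of at least 0.75, 13.6% with all coding 5′ ends considered, 15.4% without the narrowest 25% of sites and 16.2% with 1 promoter per locus. Members in a list (288) fell to 134 under the stricter GC and CpG limits.

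For the 15 measures tested, 155 alternatives were run, and 136 kept direction and side of the threshold. The site density, head-to-head, ETS, YY1, NRF1 and CRE results did so in all, with sizes that moved by over 1.5 times for site density from 20 to 100 kb away (-45.7), head-to-head with 1 promoter per locus (-9.54) and YY1 over 500 bp either side (-7.98). Site density and head-to-head arrangement are not independent of the rule, so their stability is no separate support. Under the stricter GC and CpG limits the differences were 27.5 bp in span, 0.922 points for CCAAT and 0.486 for the E-box, all reversed, gene length (0.131) lost significance, and the difference in site-free neighbours was 6.40 points. Gene length also lost it with all coding 5′ ends (0.0916) and 1 promoter per locus (0.145). The CCAAT difference lost it in a window of 500 bp either side (-2.02) and without head-to-head promoters (-3.78). Repeats passed with 250 bp either side (1.26 points) and the TATA box with 2 kb (2.39). Reversals of results never significant in the main test were those of the E-box with 10 kb (0.420), 250 bp (0.0442), without narrow sites (0.158) and 1 promoter per locus (0.131), of the GC box with 250 bp (1.45), and of E2F with the principal transcript (-0.0208) and, then significant, with 500 bp either side (-2.15). Windows at least 90% unique, chosen after seeing the data like the omission of head-to-head promoters, left the span difference at -20.7 bp and gave a longest run of 7 in place of 14. The cause was not tested in any case.

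No paired analysis was possible because positions carry no sample. For the same reason no library was left out, and the read depth behind the absence of a site is unknown.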
